A study of Triticum aestivum with 12 samples.

Results

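The genes described here are 8 wheat alternative oxidase genes that sit close together on the group 2 chromosomes. They were taken as a fixed list of identifiers, 3 on 2A, 3 on 2B and 2 on 2D, out of 124118 genes in the count table. This list was chosen with earlier results of these data known, so counts over its members are a description. The table described 15 genes as alternative oxidase (Pfam domain PF01786), and 13 of them, including all 8 members, passed the filter on low counts. RNA was taken from wheat seedlings, 2 months after germination, from their upper part without the roots, and no treatment was given. The 4 groups, with 3 libraries each, were wild type (WT) and the transgenic lines C20, C22 and C40 (also written 40C), which overexpress a form of TaSIP1 marked ∆C in the labels, a protein that the series title links to TaSRO1 and to mitochondrial retrograde signalling. The labels name neither the promoter of the transgene nor the plants behind each replicate, so p-values measure the spread between these libraries, which may be technical. The level of TaSIP1 itself was not analysed here.

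Alternative oxidase is an enzyme of the inner mitochondrial membrane that takes electrons from ubiquinol and reduces oxygen to water. Electrons that take this path skip the proton-pumping complexes III and IV. In Arabidopsis, an alternative oxidase gene is the usual marker of mitochondrial retrograde signalling, the route by which a disturbed mitochondrion changes nuclear gene expression, and membrane-bound NAC transcription factors act in that route.

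Library totals ranged from 25622422 to 43532179 counts. Levels are given as CPM, counts scaled to a common library size with edgeR's trimmed mean of M values (TMM). Leaf transcripts were abundant in every library, the 120 chlorophyll a/b-binding genes, of which 10 to 18 had no count in a given library, taking 3.09% to 9.57% of counts and the Rubisco small subunit genes 1.19% to 4.64%. The summed level of 848 genes described as histone or cyclin, a sign of dividing tissue, was between 2876 and 3439 CPM in WT. C20 replicate 3, at 3733 CPM, and C40 replicate 1, at 3136 CPM, were near this level. It was 8769 to 19687 CPM in the other 7 line libraries, with the highest value in C20 replicate 2. Genes described as gliadin, prolamin or seed storage, a class that includes lipid transfer proteins, took 0.164% to 0.460% of counts.

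The members differ in structure. On 2A, TraesCS2A01G438200 (689630253 to 689631640, minus strand) and TraesCS2A01G438300 (689709559 to 689710548, minus strand) are neighbours with 77918 bases and 0 genes between them. TraesCS2A01G439400 (690738159 to 690740058, plus strand) lies 1027610 bases and 12 genes further on. On 2B, TraesCS2B01G459000 (653610681 to 653611670) and TraesCS2B01G459100 (653619152 to 653620553) are 7481 bases apart, and TraesCS2B01G459300 (653745973 to 653747929) follows 125419 bases and 1 gene later, all on the plus strand. On 2D, TraesCS2D01G436200 (546931974 to 546932954) and TraesCS2D01G436700 (547250216 to 547252178), both on the plus strand, have 317261 bases and 4 genes between them. These positions come from the deposited table, and the sources used here do not name their genome build. In 5 members, namely TraesCS2A01G438200, TraesCS2A01G438300, TraesCS2B01G459000, TraesCS2B01G459100 and TraesCS2D01G436200, the deposited gene length equals the span on the chromosome, so the model leaves no bases for an intron. In the other members, TraesCS2A01G439400, TraesCS2B01G459300 and TraesCS2D01G436700, 913, 967 and 952 bases of the span are outside the gene length of 987, 990 and 1011 bases. Each chromosome therefore holds 1 gene with intron space, the last member in position, and at least 1 without. This grouping by structure was made after the values had been seen. No other gene of the table overlaps a member, but copies with similar sequence may share reads, and the sources used here do not say how such reads were counted.

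The 5 genes without introns rose, and each exceeded WT in every transgenic library. Of the genes with intron space, TraesCS2B01G459300 and TraesCS2D01G436700 rose by 1.19 and 1.07 on the log2 scale, and TraesCS2A01G439400 did not pass. In the mean of the 3 lines against WT, 7 of 8 members rose and 0 fell (edgeR quasi-likelihood test, adjusted p at most 0.05 by Benjamini-Hochberg over 75788 genes). Over all tested genes 11.5% rose, 11.7% fell, and 23.2% changed in either direction. The median log2 fold change was 2.34 over the members and 0.07 over all tested genes. In these bulk samples more cells with a transcript and more transcript per cell cannot be told apart.

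TraesCS2A01G438200 had 1.04, 1.00 and 1.23 CPM in WT. It had 39.4, 6.58 and 71.3 CPM in C20 replicates 1, 2 and 3, 14.9, 8.30 and 13.7 CPM in those of C22, and 22.1, 19.9 and 21.95 CPM in those of C40. The lowest line library was thus far above the highest WT library, and the C20 libraries differed 10.8-fold among themselves. Its log2 fold change was 4.31 ± 0.64 (SE, edgeR adjusted p = 0.00281). The neighbour TraesCS2A01G438300 was the least abundant member in WT, also per length, with 0.247, 0.345 and 0.274 CPM from 28 counts in all. It reached 6.50, 1.62 and 9.63 CPM in C20, 3.57, 0.789 and 1.49 CPM in C22, and 3.42, 3.43 and 5.22 CPM in C40. All 9 line libraries were above WT, by 3.62 ± 0.66 on the log2 scale (SE, edgeR adjusted p = 0.00604).

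On 2B, TraesCS2B01G459000 was the most abundant member in WT, also per length, with 4.48, 7.44 and 9.43 CPM. It had 66.3, 13.6 and 107.7 CPM in C20, 15.01, 9.88 and 19.6 CPM in C22, and 25.0, 33.2 and 35.1 CPM in C40. C22 replicate 2 was just above the highest WT library, while C20 replicate 3 was far above all others. The log2 fold change was 2.11 ± 0.53 (SE, edgeR adjusted p = 0.0205). Without WT replicate 1, 2 or 3 this gene did not pass (adjusted p = 0.0864, 0.0849 and 0.0594). TraesCS2B01G459100, its neighbour, had 4.54, 4.87 and 6.41 CPM in WT, 50.8, 10.8 and 89.5 CPM in C20, 18.8, 14.998 and 19.96 CPM in C22, and 32.4, 30.4 and 40.7 CPM in C40. The groups did not overlap, and the log2 fold change was 2.58 ± 0.51 (SE, edgeR adjusted p = 0.00852). It did not pass without WT replicate 2 (adjusted p = 0.0519).

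On 2D, TraesCS2D01G436200 had 0.357, 1.41 and 1.27 CPM in WT, so WT replicate 1 was low, at 13 counts. The gene had 16.1, 2.54 and 23.8 CPM in C20, 11.4, 4.80 and 7.47 CPM in C22, and 15.1, 16.6 and 18.4 CPM in C40. Every line library was above WT, and all C40 libraries lay between the lowest and the highest of C20. The log2 fold change was 3.61 ± 0.69 (SE, edgeR adjusted p = 0.00733).

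Among the genes with intron space, TraesCS2A01G439400 had 3.85, 3.70 and 4.39 CPM in WT. In C20 it had 4.24, 1.56 and 4.05 CPM, in C22 10.5, 3.50 and 4.47 CPM, and in C40 3.94, 6.15 and 4.998 CPM. The groups overlapped, with C22 replicate 1 alone at a high value, and the log2 fold change was 0.23 ± 0.36 (SE, edgeR adjusted p = 0.668). TraesCS2B01G459300 had 2.25, 1.82 and 2.26 CPM in WT, 3.07, 1.86 and 2.92 CPM in C20, 12.02, 3.50 and 5.04 CPM in C22, and 5.71 to 7.33 CPM in C40. C22 and C40 were above WT in every library, whereas C20 replicate 2 lay inside the WT range. The log2 fold change was 1.19 ± 0.35 (SE, edgeR adjusted p = 0.0325). TraesCS2D01G436700 had 2.97, 2.26 and 2.81 CPM in WT, 2.99, 2.18 and 3.78 CPM in C20, 15.3, 4.39 and 5.94 CPM in C22, and 6.49, 7.49 and 7.33 CPM in C40. It showed the same order of groups, with C20 overlapping WT and C22 replicate 1 highest. Its log2 fold change was 1.07 ± 0.35 (SE, edgeR adjusted p = 0.0469). The rises of these genes were less firm: without each library in turn, the adjusted p reached 0.134 for TraesCS2B01G459300 and 0.174 for TraesCS2D01G436700. TraesCS2B01G459300 did not pass without any of the WT replicates, C20 replicate 1 or C40 replicate 2. TraesCS2D01G436700 did not pass without any of the WT replicates, C20 replicate 1 or 3, C22 replicate 3, or C40 replicate 2 or 3.

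**Figure D1:**
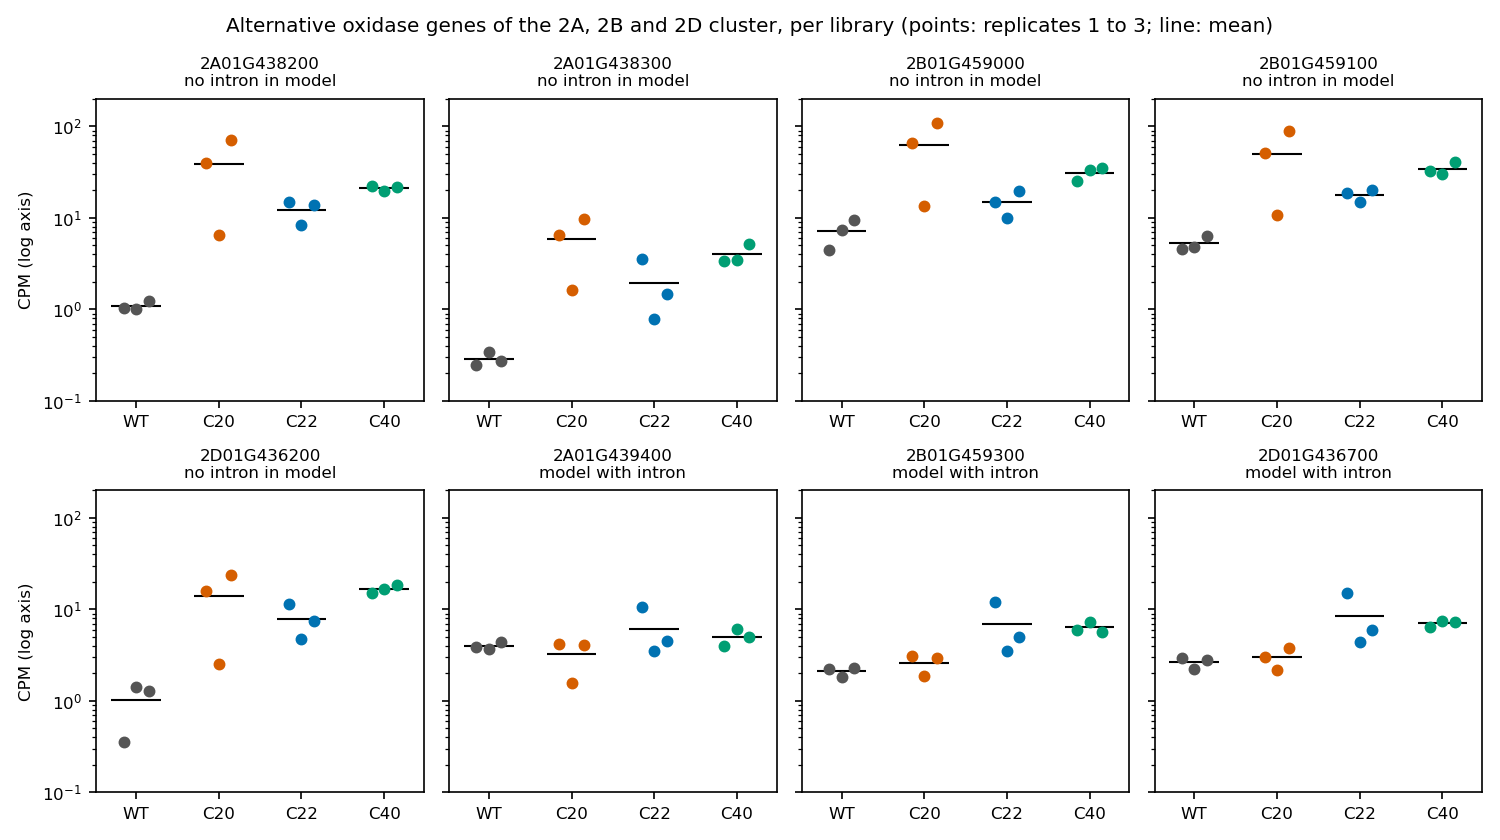
Level of each member in CPM (vertical, log axis) in every library, by group, with points for replicates 1 to 3 and a line for the group mean. The 5 genes without introns lie above WT in all 9 line libraries, while TraesCS2A01G439400 overlaps WT in every line.

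All 9 line libraries were above all 3 WT libraries for 5 of 8 members, the 5 without introns, and below for 0. Of all tested genes 5.95% were above and 8.13% below in this way. For single lines, 5 members lay above WT in C20, 7 in C22 and 7 in C40, and 0 lay below, against 10.5%, 30.4% and 23.3% of all genes above and 15.9%, 25.0% and 20.5% below. Without C20 replicate 3 and C40 replicate 1, the line libraries with low histone and cyclin levels, 6 of 8 members rose, against 21.1% of all tested genes in that fit (41.8% changed in either direction), and TraesCS2D01G436700 had an adjusted p of 0.052. The log2 fold change of TraesCS2A01G438200 was then 4.02 (adjusted p = 0.000813) and that of TraesCS2A01G438300 was 3.44 (adjusted p = 0.00295). The part of cell division in the differences within lines was not tested. With counts scaled by library totals in place of TMM, an alternative added after seeing the data, the median of all genes shifted from 0.07 to 0.50, and 18005 genes rose and 4230 fell in place of 8691 and 8901. Relative to that median TraesCS2A01G438200 rose by 4.17, TraesCS2B01G459300 by 1.11 and TraesCS2D01G436700 by 0.98 on the log2 scale, and TraesCS2A01G439400 differed by 0.13 and did not pass.

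Each line was then compared with WT in the same fit. These 3 comparisons share the WT libraries. In C20, 5 of 8 members rose, exactly those without introns, and 0 fell, while 1.44% of all tested genes rose and 1.02% fell, 2.46% in all. In C22, 6 rose and 0 fell, while 9.48% of all genes rose and 8.56% fell, 18.0% in all. In C40, 7 rose and 0 fell, while 9.81% of all genes rose and 8.80% fell, 18.6% in all. TraesCS2A01G438200 had the highest log2 fold change in each line, 5.15 ± 0.70 in C20 (SE, edgeR adjusted p = 0.00933), 3.49 ± 0.66 in C22 (adjusted p = 0.00946) and 4.28 ± 0.68 in C40 (adjusted p = 0.00425). TraesCS2D01G436200 rose by 3.81 ± 0.75 in C20, by 2.97 ± 0.72 in C22 and by 4.05 ± 0.75 in C40. TraesCS2A01G438300 rose by 4.33 ± 0.72, 2.74 ± 0.70 and 3.78 ± 0.71. On 2B, TraesCS2B01G459100 rose by 3.26 ± 0.58, 1.77 ± 0.55 and 2.71 ± 0.56. TraesCS2B01G459000 rose by 3.13 ± 0.62 in C20 and 2.13 ± 0.59 in C40, and in C22 its log2 fold change of 1.06 ± 0.58 did not pass (adjusted p = 0.21).

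The genes with intron space had other values by line. TraesCS2B01G459300 rose by 1.69 ± 0.40 in C22 (SE, edgeR adjusted p = 0.0199) and by 1.58 ± 0.40 in C40 (adjusted p = 0.0235), and its log2 fold change in C20 was 0.30 ± 0.40 (adjusted p = 0.652). TraesCS2D01G436700 rose by 1.67 ± 0.41 in C22 (adjusted p = 0.0218) and by 1.40 ± 0.41 in C40 (adjusted p = 0.0367), and its log2 fold change in C20 was 0.15 ± 0.41 (adjusted p = 0.839). TraesCS2A01G439400 did not pass in any line, with log2 fold changes of -0.28, 0.63 and 0.34 in C20, C22 and C40. The calls within single lines depend on single libraries. The calls over all genes fell in these fits too. In C20, where 2.46% of all genes were called with every library, 0 members passed without WT replicate 1, 2 or 3, and 0.127%, 0.112% and 0.194% of all genes did. Without C20 replicate 1, 1 member and 0.481% of all genes passed. Without C22 replicate 3 or C40 replicate 2, 3 members and 0.876% or 1.12% of all genes passed in C20, and when C20 was fitted with WT alone 0 members and 12 genes passed. In C22, where 18.0% of all genes were called with every library, 1 member passed without WT replicate 1, 2 or 3, when 6.25%, 4.36% and 6.98% of all genes did. Without C22 replicate 1, 1 member and 7.15% of all genes passed, and without C22 replicate 3, 4 members and 7.35%. In C40, 4, 3 and 4 members passed without WT replicates 1, 2 and 3, with 7.88%, 5.95% and 7.82% of all genes in place of 18.6%. Without C40 replicate 2 or 3, 4 members passed in C40, with 9.28% or 5.55% of all genes.

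**Figure D2:**
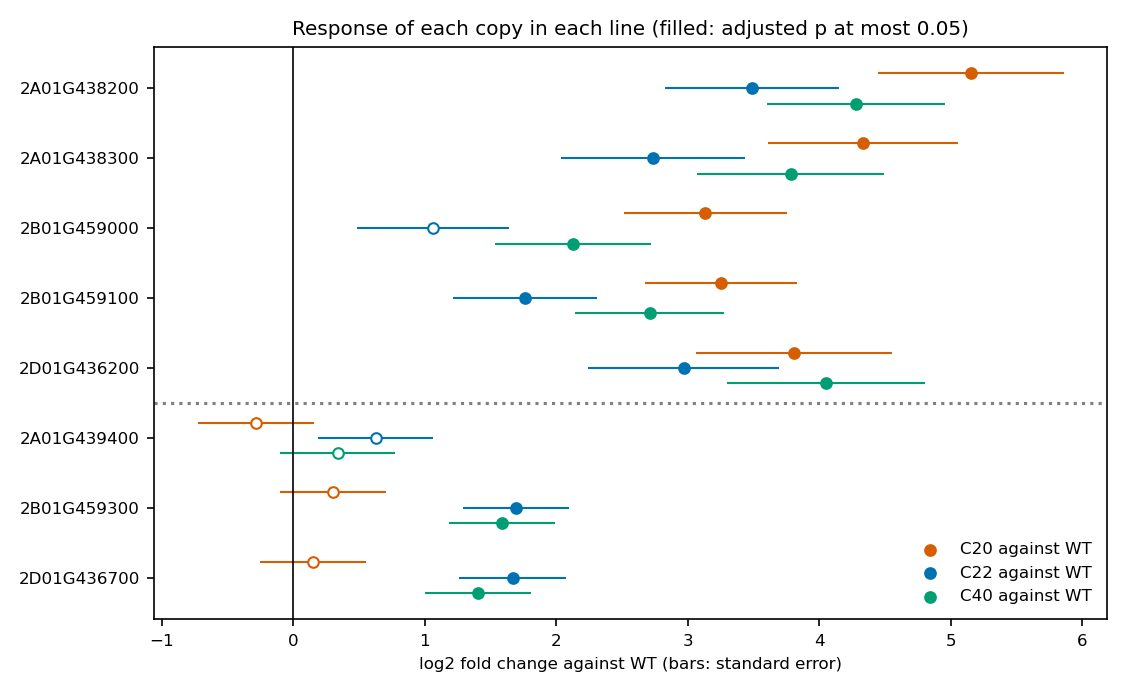
Log2 fold change of each member against WT (horizontal, bars show the standard error) in C20, C22 and C40, with filled points at an adjusted p of at most 0.05. Above the dotted line are the genes without introns, filled in all lines except TraesCS2B01G459000 in C22, and below it the genes with intron space, none of which is filled in C20.

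Whether the lines differ was tested directly. By the F test between lines 0 of 8 members passed, with a lowest adjusted p of 0.121, and 4 had an unadjusted p under 0.05. Over all 75788 tested genes 2.49% passed, and 13781 genes had an unadjusted p under 0.05. In C22 against C20, 0 members passed, while 0.537% of all genes were higher and 0.534% lower, 1.07% in all. An unadjusted p under 0.05 was found for 6 members and for 12879 of the 75788 genes. The 5 genes without introns were all lower in C22 than in C20, with log2 differences of -2.07 ± 0.59 for TraesCS2B01G459000, -1.67 ± 0.60 for TraesCS2A01G438200, -1.60 ± 0.62 for TraesCS2A01G438300, -1.49 ± 0.54 for TraesCS2B01G459100 and -0.84 ± 0.66 for TraesCS2D01G436200 (SE). The genes with intron space were all higher in C22, by 1.52 ± 0.41 for TraesCS2D01G436700, 1.39 ± 0.40 for TraesCS2B01G459300 and 0.91 ± 0.44 for TraesCS2A01G439400 (SE). The lowest adjusted p among these was 0.0935. With DESeq2 3 of the 8 passed, TraesCS2B01G459000 (adjusted p = 0.00931), TraesCS2D01G436700 (0.0174) and TraesCS2B01G459300 (0.0318), while DESeq2 called 6.26% of all genes with an adjusted p. Without C20 replicate 2 edgeR called 4 members, all of them without introns, and 7.58% of all genes. In C40 against C20 0 members passed (1.04% of all genes were higher and 0.619% lower, 1.66% in all). Here 2 members and 12249 of the 75788 genes had an unadjusted p under 0.05. In C40 against C22 0 members passed (0.224% of all genes were higher and 0.201% lower, 0.425% in all). Here 0 members and 7605 of the 75788 genes had an unadjusted p under 0.05. Without C20 replicate 2, 2 members and 5.10% of all genes were called in C40 against C20.

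Ratios between members within a library were used to test whether copies differed in response. For each of 28 pairs, the log2 ratio of CPM (0.1 CPM added) was compared between the 9 line and the 3 WT libraries by a two-sided exact permutation test over 220 arrangements, whose smallest p is 0.00909. The libraries were taken as exchangeable, although the 9 come from 3 lines. At a Benjamini-Hochberg adjusted p of at most 0.05 over the 28 pairs, 18 pairs differed. They comprised 10 of 15 pairs of a gene without introns and a gene with intron space, 6 of 10 pairs within the first kind and 2 of 3 within the second. Without WT replicate 1, 2 or 3, 0 pairs passed. The smallest p the test can give is then 0.0364, which 15 to 18 pairs reached, and the lowest adjusted p was 0.0566 to 0.0679. The 0.1 CPM is not small beside the WT level of TraesCS2A01G438300, so ratios of the raw counts with nothing added were tested too, an alternative chosen after seeing the data. They also gave 18 pairs, 10 of them between the 2 kinds of gene, but with 1 pair lost and 1 gained. In each pair named below as differing, the 9 transgenic libraries were all to 1 side of the WT range, by both ratios, unless a number is given.

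TraesCS2A01G438200 changed more than both 2B genes without introns and more than all genes with intron space. Its log2 ratio to TraesCS2D01G436200 did not pass (a difference of 0.53, exact permutation adjusted p = 0.255). Whether it changed more than its neighbour TraesCS2A01G438300 depends on the added 0.1 CPM. With it, the log2 ratio was 1.62 in WT and 2.56 in the lines (exact permutation adjusted p = 0.017), while the count ratios were 1.93 and 2.61 on the log2 scale, a difference of 0.68 that did not pass (exact permutation adjusted p = 0.116), with 6 of 9 line libraries above the WT range. The pair gained with the count ratios was TraesCS2A01G438300 over TraesCS2B01G459100 (1.00 in place of 0.65 on the log2 scale, above WT in 8 of 9 line libraries, exact permutation adjusted p = 0.0424 in place of 0.0926). The log2 ratio of TraesCS2A01G438200 to TraesCS2B01G459000 rose from -2.54 to -0.53, and that to TraesCS2B01G459100 from -2.16 to -0.57. The widest difference between any members was that of TraesCS2A01G438200 and TraesCS2A01G439400, both on 2A. Their log2 ratio was -1.77 in WT and 2.10 in the lines, so the order of these genes turned over in every line library. TraesCS2B01G459000 and TraesCS2B01G459100, which are the closest neighbours of the cluster, had log2 ratios of 0.38 in WT and -0.05 in the lines (exact permutation adjusted p = 0.122). TraesCS2D01G436200 changed more than both of them, by 1.48 against TraesCS2B01G459000 in 8 of 9 line libraries (exact permutation adjusted p = 0.0299) and by 1.05 against TraesCS2B01G459100 in 7 of 9 (adjusted p = 0.0424). With 1 CPM added, close to the WT level of TraesCS2D01G436200, these differences did not pass (exact permutation adjusted p = 0.158 and 0.233).

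TraesCS2B01G459300 and TraesCS2D01G436700 kept a near constant ratio. Its log2 value was -0.38 to -0.30 in WT and -0.36 to 0.03 over the lines, a difference of 0.11 between the group means (exact permutation adjusted p = 0.255). Over the 9 line libraries their log2 CPM had r = 0.984, a description of libraries from 3 lines that also share scaling. TraesCS2A01G439400 stood apart from both: its log2 ratio to TraesCS2B01G459300 went from 0.89 in WT to -0.08 in the lines (exact permutation adjusted p = 0.017), and that to TraesCS2D01G436700 from 0.56 to -0.30, lower in 8 of 9 line libraries (adjusted p = 0.0299). On 2B, the ratio of TraesCS2B01G459000 to TraesCS2B01G459300 covered a different range in each line. It was 0.96 to 2.01 on the log2 scale in WT, 2.80 to 5.16 in C20, 0.32 to 1.94 in C22 and 2.04 to 2.599 in C40. C20 and C40 thus lay above WT, while C22 overlapped it, and with 3 against 3 libraries an exact test cannot go below 0.1.

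**Figure D3:**
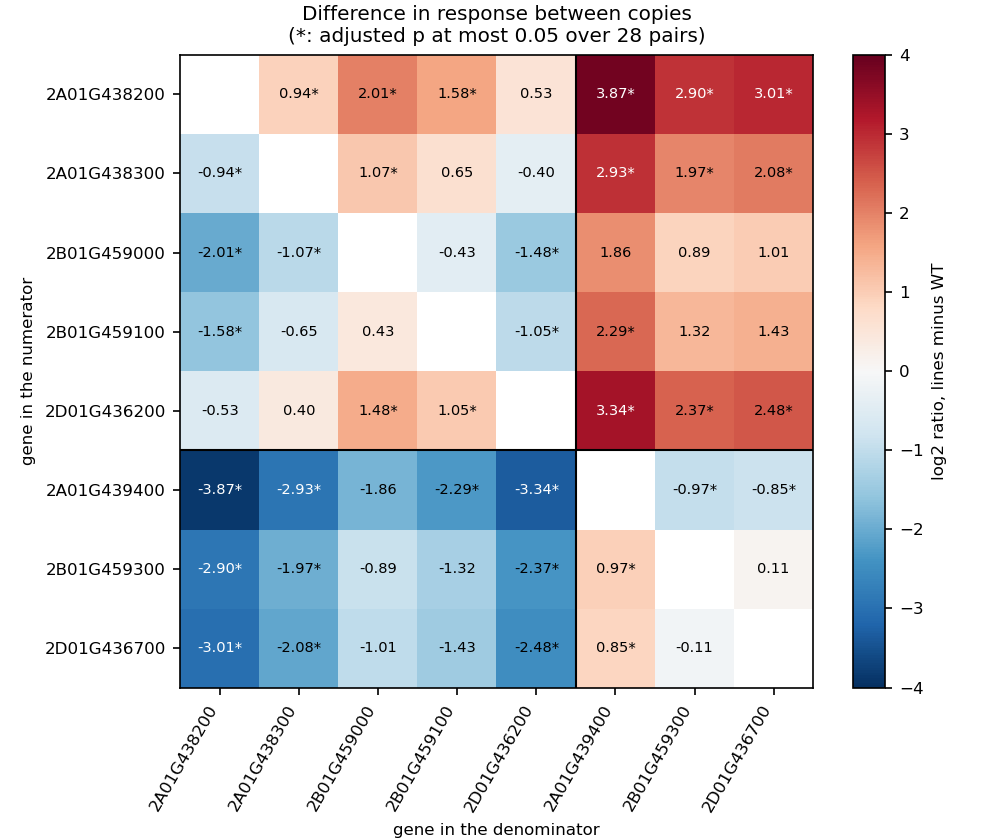
Difference between lines and WT in the log2 ratio of the gene in the row to the gene in the column, for all 28 pairs, with an asterisk at an adjusted p of at most 0.05. The block at the top right, genes without introns over genes with intron space, is positive throughout, from 0.89 to 3.87. The asterisk of TraesCS2A01G438200 over TraesCS2A01G438300 rests on the 0.1 CPM added to both genes.

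Levels were compared between genes per length, as CPM per kilobase of gene length. In WT the order of means was TraesCS2B01G459000 at 7.19 ± 2.52, TraesCS2A01G439400 at 4.03 ± 0.365, TraesCS2B01G459100 at 3.76 ± 0.714, TraesCS2D01G436700 at 2.65 ± 0.368, TraesCS2B01G459300 at 2.13 ± 0.255, TraesCS2D01G436200 at 1.03 ± 0.583, TraesCS2A01G438200 at 0.789 ± 0.0884 and TraesCS2A01G438300 at 0.292 ± 0.0511 (SD, n = 3). Neighbours in this order overlapped for TraesCS2A01G439400 and TraesCS2B01G459100, for TraesCS2D01G436700 and TraesCS2B01G459300, and for TraesCS2D01G436200 and TraesCS2A01G438200. In C40, TraesCS2B01G459000 led at 31.4 ± 5.42, followed by TraesCS2B01G459100 at 24.6 ± 3.88, TraesCS2D01G436200 at 17.0 ± 1.69 and TraesCS2A01G438200 at 15.3 ± 0.883 (SD, n = 3). The libraries of the first 2 overlapped, as did those of the next 2. The genes with intron space followed at 7.03, 6.41 and 5.10, each overlapping the next, and TraesCS2A01G438300 was again last, at 4.06 ± 1.04. TraesCS2A01G439400 thus stood near the top in WT and near the end in C40. In C20 and C22 every gene overlapped the next in the order.

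The cluster as a sum held 19.7, 22.9 and 28.1 CPM in WT, 40.7 to 312.6 CPM in C20, 50.2 to 101.5 CPM in C22 and 114.5 to 139.4 CPM in C40. Of the summed CPM per kilobase, the 5 genes without introns held 58.9% ± 7.71 in WT, 91.4% ± 6.15 in C20, 70.1% ± 9.78 in C22 and 83.2% ± 2.11 in C40 (SD, n = 3). The genes with intron space summed to 7.79 to 9.46 CPM in WT, 5.61 to 10.8 CPM in C20, 11.4 to 37.8 CPM in C22 and 16.4 to 21.0 CPM in C40. Among the chromosomes, 2B held the most in every group, 59.3% ± 3.97 in WT, 64.8% ± 0.461 in C20, 52.1% ± 7.08 in C22 and 56.2% ± 1.39 in C40. The share of 2A was 23.7% in WT and 22.1% to 24.6% in the line means, so it differed little. That of 2D was 17.0% ± 1.25 in WT, 11.8% ± 1.38 in C20, 23.2% ± 4.99 in C22 and 21.7% ± 0.369 in C40, below WT in every C20 library and above it in every library of C22 and C40. Within 2A the make-up turned over: TraesCS2A01G438200 took 3.64% of the cluster in WT and 14.6% in the lines, and TraesCS2A01G439400 18.7% and 5.39%.

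**Figure D4:**
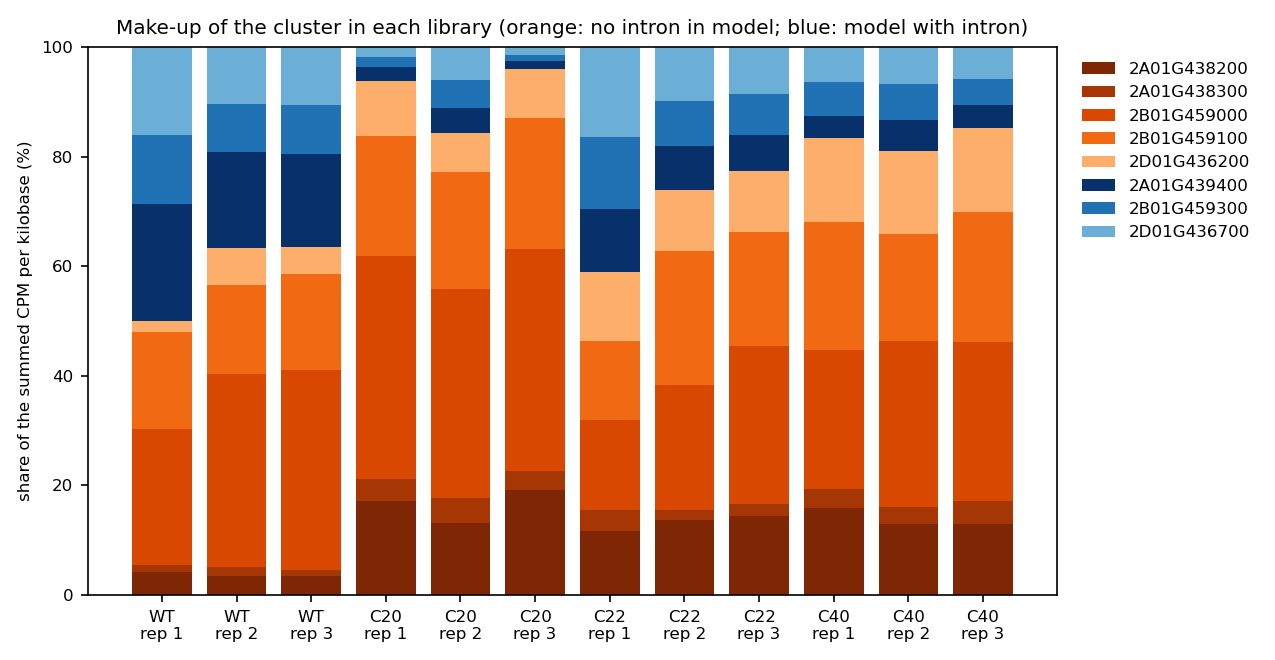
Share of the summed CPM per kilobase held by each member (vertical, percent) in each of the 12 libraries. The orange part, the genes without introns, is 50.04% to 63.5% in WT, 84.4% to 96.0% in C20, 59.0% to 77.4% in C22 and 81.0% to 85.2% in C40.

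Different libraries were highest for the different genes. C20 replicate 3 had the highest level of all 5 genes without introns, and C22 replicate 1 that of all genes with intron space. C20 replicate 2 was the lowest line library for 6 members, including all with intron space, and C22 replicate 2 was the lowest for TraesCS2A01G438300 and TraesCS2B01G459000. C20 replicate 3 also had the most chlorophyll a/b-binding transcript of the lines (127349 CPM) and C20 replicate 2 the least (24850 CPM), while C22 replicate 1 had 58341 CPM. The part of this difference in the oxidase levels was not tested.

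The genes between and beside the members moved in both directions. From the 10th gene before the first member to the 10th after the last, the 3 chromosomes held 77 other genes, of which 36 were tested. Of these 5 rose and 6 fell, 30.6%, against 23.2% of all tested genes in either direction. Their median log2 fold change was -0.06, against 0.07 over all genes. Most genes directly between the members were below the filter: 6 of 17 were tested, all on 2A, and 1 rose, TraesCS2A01G438900 (undescribed), by 0.64 ± 0.21 (SE, edgeR adjusted p = 0.0489). Another gene between the 2A members, TraesCS2A01G439100 (690409178 to 690411279), is itself described as an alternative oxidase and had 3 counts over all 12 libraries, 0 of them in WT. On 2A, TraesCS2A01G440000 (undescribed) rose from 1.12 ± 0.168 CPM in the 3 WT libraries to 3.999 ± 2.02 CPM in the 9 line libraries (SD), and TraesCS2A01G440100, with the ENTH domain of endocytic adaptors, from 24.9 ± 2.69 to 36.0 ± 5.14 CPM. On 2B, a locus outside the reference annotation fell from 90.2 ± 6.35 to 48.8 ± 14.5 CPM, an O-methyltransferase gene, TraesCS2B01G460000, fell by 1.93 ± 0.58 on the log2 scale and a glycosyltransferase gene, TraesCS2B01G459900, by 1.55 ± 0.46. On 2D, TraesCS2D01G436100 (546872156 to 546873142), the undescribed gene just before TraesCS2D01G436200, rose from 0.160 ± 0.0586 to 1.36 ± 0.832 CPM, by 2.97 ± 0.82 on the log2 scale (SE, edgeR adjusted p = 0.027). TraesCS2D01G435200, with the QLQ and WRC domains of growth-regulating factors, rose by 1.45 ± 0.40, and the undescribed TraesCS2D01G435600 fell by 0.97 ± 0.29.

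**Figure D5:**
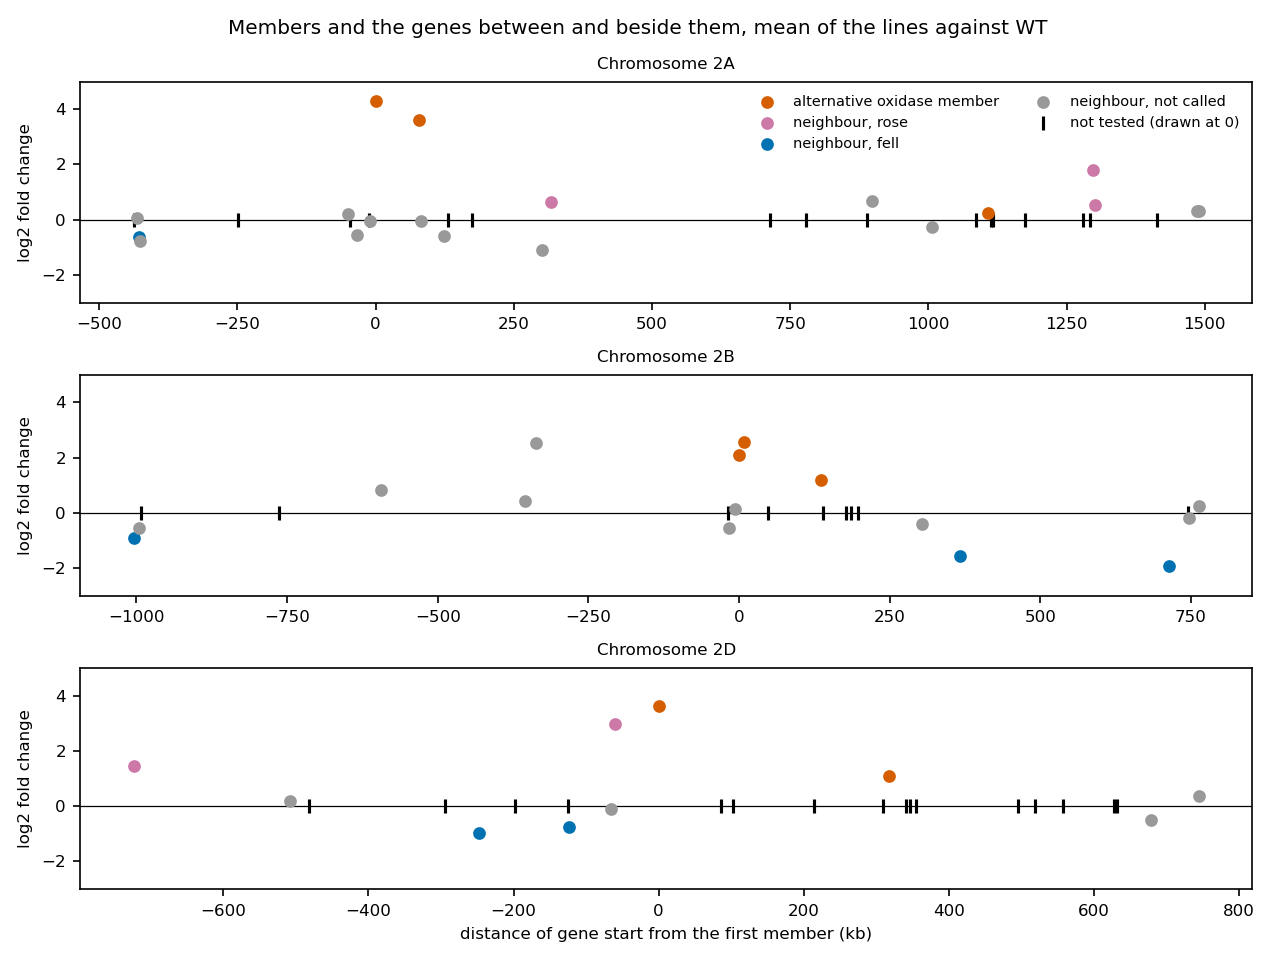
Log2 fold change in the mean of the lines against WT (vertical) of members and neighbouring genes along 2A, 2B and 2D, by distance of the gene start from the first member (horizontal, kb), with ticks at 0 for genes that were not tested. Members without introns lie between 2.11 and 4.31, above all tested neighbours that were called except TraesCS2D01G436100 on 2D at 2.97, which exceeds the members of 2B.

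Of the other 7 alternative oxidase genes, which include TraesCS2A01G439100 from between the 2A members, 5 were tested. Of these, 0 rose and 0 fell (edgeR, adjusted p at most 0.05) in the mean of the lines and in each line. Over all tested genes 23.2% were called in the mean of the lines, 2.46% in C20, 18.0% in C22 and 18.6% in C40. In the mean of the lines, 1 of the 5 had an unadjusted p under 0.05, as did 29854 of all 75788 tested genes. The most abundant of the 5 per length, TraesCS2D01G542600, had 46.2 to 56.02 CPM per kilobase in WT, above every cluster gene there. It had 12.5 to 76.9 CPM per kilobase in the lines. TraesCS6A01G269100 had 22.7 to 25.4 CPM in WT, while its C40 libraries held 7.17 to 9.94 CPM, a log2 difference of -1.51 ± 0.55 that did not pass (edgeR adjusted p = 0.0754). Its level in C20 spread from 3.16 to 27.98 CPM.

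Other gene families were counted from lists of descriptions, beside 23.2% called over all tested genes and a median log2 fold change of 0.07. Whether their members act in the same pathway as alternative oxidase was not tested. Of 216 tested genes with NAC descriptions, 30 rose and 22 fell, 24.1%, with a median of 0.13. In C20 10 of the 216 rose and 5 fell, in C22 20 and 14, and in C40 38 and 9. Over all tested genes 1.44% rose and 1.02% fell in C20, 9.48% and 8.56% in C22, and 9.81% and 8.80% in C40. TraesCS5A01G143100 rose from 0.214 ± 0.104 to 1.46 ± 0.790 CPM (SD). A locus outside the reference annotation on 5B fell from 33.8 ± 4.496 to 7.89 ± 3.38 CPM. Its description gives only a NAC-associated C-terminal domain, so it need not be a NAC factor. Of 18 genes with the RST domain, which SRO and TAF4 proteins share, 0 rose and 1 fell (5.56%), TraesCS6A01G242900, a TAF4-type gene, by 0.51 ± 0.16 on the log2 scale (edgeR adjusted p = 0.0406). TraesCS7A01G409200, which has both RST and PARP domains as SRO proteins do, had a log2 fold change of 0.32 (adjusted p = 0.118). Another list matched descriptions of subunits and assembly factors of complexes III and IV, the complexes that alternative oxidase bypasses. Of its 46 tested genes 1 rose and 3 fell, 8.70%, with a median of 0.09. The match was on text alone: a gene that fell, TraesCS2D01G213400, is described as a cbb3-type cytochrome c oxidase subunit. The gene that rose, TraesCS7A01G239000, encodes a cytochrome oxidase assembly protein and went from 0.616 ± 0.0453 to 1.65 ± 0.587 CPM. Of 143 mitochondrial carrier genes, which move metabolites across the inner membrane, 2 rose and 21 fell, 16.1%. TraesCS1D01G195400 fell from 92.2 ± 15.2 to 26.5 ± 16.8 CPM.

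Of 205 mTERF genes, regulators of organelle gene expression, 5 rose and 23 fell, 13.7%, and TraesCS6B01G045100 fell by 1.51 ± 0.30 on the log2 scale. Of 36 genes with the band 7 domain of prohibitins and related membrane scaffolds, 14 rose and 2 fell, 44.4%, with a median of 0.55. TraesCS6A01G142300 rose from 0.0105 ± 0.0181 CPM to 1.76 ± 1.43 CPM. The pattern for BCS1-type ATPases matched 0 descriptions.

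The genes most like TraesCS2A01G438200 over the 12 libraries were ranked by Pearson's r of log2 CPM among 39683 described genes with a mean of at least 1 CPM. This r includes the difference between WT and lines, and it is given as a description. The first 10 had r of 0.985 to 0.994, and within the 9 line libraries r was 0.921 to 0.991. They were the calmodulin-binding gene TraesCS3D01G041800, the helix-loop-helix gene TraesCS3D01G210600, the DnaJ chaperone gene TraesCS7D01G495200, the receptor kinase-type genes TraesCS3B01G310000 and TraesCS2D01G509500, the WRKY genes TraesCS1A01G410700 and TraesCS3D01G341100, the AP2 gene TraesCS5A01G312000, the aromatic amino acid lyase gene TraesCS1D01G103500 and the zinc finger gene TraesCS7D01G161800. TraesCS3D01G041800 went from 2.74 ± 0.0954 to 30.1 ± 16.4 CPM and TraesCS7D01G495200 from 0.522 ± 0.0754 to 11.2 ± 10.8 CPM. Among the members, r to TraesCS2A01G438200 within the 9 line libraries was 0.984 for TraesCS2B01G459100, 0.956 for TraesCS2B01G459000, 0.901 for TraesCS2A01G438300 and 0.887 for TraesCS2D01G436200. It was 0.316 for TraesCS2A01G439400, 0.033 for TraesCS2B01G459300 and 0.00604 for TraesCS2D01G436700.

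For comparison the same ranking was made for TraesCS2B01G459300, a gene chosen after its values were seen. Outside the cluster the first 3 of the list had r of 0.949 to 0.959 over the 12 libraries. All were described as glutathione S-transferases, enzymes that conjugate glutathione to reactive compounds. At rank 2, a locus outside the reference annotation had 5.35 ± 10.7 CPM (SD) over the line libraries, from 0 to 33.7 CPM. TraesCS7D01G044500 had 0 counts in WT and 1.48 ± 1.58 CPM (SD) over the line libraries, and TraesCS4A01G103700 went from 0.202 ± 0.122 to 4.44 ± 4.45 CPM. Ranks 4 to 10 had other descriptions, with r of 0.928 to 0.947. They were PLAC8, subtilase, WRKY, glycosyltransferase, cytochrome P450, potassium transporter and calcium ATPase genes. Within the cluster, r to TraesCS2B01G459300 over the line libraries was 0.984 for TraesCS2D01G436700 and 0.903 for TraesCS2A01G439400.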

How the data were processed

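RNA from 12 libraries was sequenced. Raw counts per gene were deposited by the authors and made with featureCounts 1.5.0-p3, per the submitters' processing notes. The deposited FPKM values equal count over gene length times a constant per library, and that constant times the library total varies by factors of 0.797 to 1.35. The aligner, the build and the use of strand are not named in the sources used here. In R 4.3.3, edgeR 4.0.16 was fitted to all libraries (filterByExpr, TMM, quasi-likelihood test, 4 group means), leaving 75788 genes. Calls used a Benjamini-Hochberg adjusted p of at most 0.05. Standard errors were obtained from the log2 fold change and F. The 28 pairs of members were compared in scipy 1.17.1. Alternatives used RLE factors, DESeq2 1.42.0, limma 3.58.1 on log2(FPKM + 0.1) or + 1, other filters, a replicate block, fewer libraries, and, chosen after seeing the data, library totals and count ratios. Methods were tested on simulated data.

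The members and the lists were chosen with earlier results of these data known. Named genes were all members, the 10 genes most like TraesCS2A01G438200, up to 2 per list and up to 3 called neighbours per chromosome. Outside this rule, TraesCS2A01G438900, TraesCS2A01G439100, TraesCS2D01G542600 and genes from the ranking for TraesCS2B01G459300 are also named. No sequence was used here. Replicates differed by more than sampling noise (chi-square per gene of at least 6.87). The precision of the tests therefore rests on the spread between libraries, and not only on library totals of 25622422 to 43532179 counts.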

Additional observations from a re-analysis of the deposited data

How the results depend on the processing

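In the mean of the lines, TraesCS2A01G438200, TraesCS2A01G438300 and TraesCS2D01G436200 passed without each library in turn, with log2 fold changes of 4.02 to 4.47, 3.36 to 3.77 and 3.16 to 3.91. With RLE factors, DESeq2, limma, other filters and library totals, 6 of the 7 members that rose kept their call, and TraesCS2D01G436700 did not pass with no filter (adjusted p = 0.0516) or with limma on log2(FPKM + 1) (adjusted p = 0.0588). Over all comparisons and settings, 1076 member values kept direction and call, 97 lost the call, 14 gained it and 13 changed sign. With DESeq2, 11317 genes were called in C20, 20628 in C22, 21614 in C40, 5209 in C22 against C20, 5304 in C40 against C20, 2447 in C40 against C22 and 8406 between any lines (edgeR 1862, 13666, 14103, 812, 1259, 322 and 1890), with 3 members called in C22 against C20 and 3 between any lines. DESeq2 called 6.26% of all genes with an adjusted p in C22 against C20 and 9.87% between any lines. The gene sets differ: DESeq2 gave 81310 to 85131 genes an adjusted p, edgeR 75788 and limma 83802. With library totals 21428 were called in C40 and 2426 in C40 against C20, where 2 members and 3.20% of all tested genes passed. With limma on log2(FPKM + 0.1) and then + 1, 1597 and 1387 were called in C22 against C20, 2327 and 2315 in C40 against C20, 946 and 1307 in C40 against C22 and 3137 and 3170 between any lines, and TraesCS2B01G459300 in C40 against C22 turned to 0.086 and 0.057. With each line and WT alone, 12 of 68022 tested genes (0.0176%) and 0 members were called in C20. In C22, 30005 of 73360 genes (40.9%) were called in this way. The replicate numbers did not pair the libraries: over 18 same-number pairs r was -0.513 to 0.461, over 0.1 in 8, and 4 libraries correlated best with their own number. With a replicate block 982 genes were called in C20, 111 in C22 against C20, 800 in C40 against C20, 165 in C40 against C22 and 656 between any lines. Of 56 member values under the block 54 kept their call, TraesCS2D01G436200 in C20 did not pass (3.58, adjusted p = 0.0634) and TraesCS2B01G459300 in C40 against C22 turned to 0.044. Without both C20 replicate 3 and C40 replicate 1, 77139 genes were tested. Of these 32263 were called in the mean of the lines, 19539 in C20, 24235 in C22, 26449 in C40, 1304 in C22 against C20 and 710 in C40 against C22. In C20, 5 members and 25.3% of all tested genes passed, and in C22 against C20, 0 members and 1.69%. In this fit log2 values turned to -0.067 for TraesCS2D01G436700 in C20 and, in C40 against C20, to 0.091 for TraesCS2A01G438300 (at its lowest -1.003, without C20 replicate 2) and to 0.20 for TraesCS2B01G459100, while TraesCS2D01G436200 stood at 0.91 there. Without each library in turn, 4216 to 26498 genes and 3 to 7 members were called in the mean of the lines, 87 to 12749 and 0 to 5 in C20, 3388 to 22299 and 1 to 7 in C22, 4288 to 22910 and 3 to 7 in C40, 4 to 5872 and 0 to 4 in C22 against C20, 267 to 3956 and 0 to 2 in C40 against C20, 37 to 2126 and 0 in C40 against C22, and 293 to 7390 and 0 to 3 between any lines. These fits tested 77196 to 77742 genes. The shares called were 5.43% to 34.1% in the mean of the lines. In C20 they were 0.112% to 16.4%, in C22 4.36% to 28.8% and in C40 5.55% to 29.6%. In C22 against C20 they were 0.00517% to 7.58%, in C40 against C20 0.343% to 5.10% and in C40 against C22 0.0477% to 2.74%. Between any lines they were 0.378% to 9.53%. The pairs of members that differed then numbered 0 to 21, of which 0 to 13 were between structures. Log2 values that changed sign in this way were those of TraesCS2A01G439400 (-0.52 to 0.057) and TraesCS2D01G436700 (-0.065 to 0.33) in C20, of TraesCS2B01G459100 (-1.03 to 0.15) and TraesCS2D01G436200 (-0.26 to 0.84) in C40 against C20, and of TraesCS2A01G439400 (-0.57 to 0.33), TraesCS2B01G459300 (-0.43 to 0.57) and TraesCS2D01G436700 (-0.58 to 0.46) in C40 against C22. With 5 or 20 genes on each side, so with fewer or more genes in the window, 3 and 18 neighbours were called. The numbers tested in those windows are not given here, so these counts cannot be set beside a share of all genes. With 10 on each side it was 11 of 36 tested, and over all tested genes 23.2% were called. The causes were not tested. Planned checks of promoter motifs and protein identity were not run, since no sequence was used. WT values of TraesCS2A01G438300 rest on 8 to 11 counts a library.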
